A study of Mus musculus with 16 samples.

Results

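Desmin, smooth muscle actin and 8 further genes that mark mesangial cells, smooth muscle and myofibroblasts were followed in primary podocytes with and without *Tsc2*. The genes were *Des*, *Vim*, *Acta2*, *Tagln*, *Myh11*, *Cnn1*, *Itga8*, *Cspg4*, *Gata3* and *S100a4*, taken by symbol, and each probe whose transcript accession belongs to one of them was used. They made up 10 of 22916 genes that could be matched on the array and 15 of its 56605 probes, and all 15 probes passed the filter on dim probes, among 27579 probes that did. *Des*, *Itga8*, *Cnn1* and 1 of 3 *Myh11* probes were higher in untreated Tsc2Δpodocyte than in untreated Tsc2flox/flox podocytes. The 1 *Myh11* probe was above background on only 1 of 4 Tsc2flox/flox arrays, and without it 3 of the 10 genes passed. With rapamycin only *Des* passed the test between the genotypes. *Acta2*, *Tagln*, *Vim*, *Cspg4*, *Gata3* and *S100a4* did not pass in either setting.

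The study asked what loss of *Tsc2* does to podocyte gene expression, and whether rapamycin alters it. Its 16 one-colour arrays hold 4 groups of 4 samples, all from the kidneys of male Jcl:ICR mice that are homozygous for a floxed *Tsc2* allele. Tsc2Δpodocyte mice also carry a Cre that is expressed in podocytes, and Tsc2flox/flox mice lack Cre. Both untreated groups came from mice of 4 weeks of age. Both rapamycin groups came from mice of 5 weeks of age, 1 week into treatment with this inhibitor of the kinase complex mTORC1, which the *Tsc2* product holds in check. The RNA is that of cells that grew out of bead-isolated glomeruli on collagen, a culture that may hold cells other than podocytes, in which Cre is not active. A Tsc2flox/flox mouse with no Cre does not control for Cre itself. The untreated groups filled 1 slide and the rapamycin groups the other, so treatment, age and slide cannot be told apart. On both slides the genotypes lay in different rows, and a row effect cannot be told apart from the genotype. Nothing states that the samples of a group came from separate mice, and p-values then measure only the spread between these samples.

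A glomerulus is held together by mesangial cells, contractile pericyte-like cells that share much of their gene expression with vascular smooth muscle. Smooth muscle identity rests on serum response factor (SRF) and its coactivators of the myocardin family, which act through CArG boxes near genes of the contractile apparatus such as *Acta2*, *Tagln*, *Myh11* and *Cnn1*. Fibroblasts that turn into myofibroblasts take up *Acta2* as well, with vimentin as their intermediate filament. Podocytes express vimentin too, and desmin in podocytes is used by renal pathologists as a sign of injury.

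Because CArG boxes are described near contractile genes, the stretch of 250 bases before the start site was searched for them. RefSeq promoter sequences (GRCm38.p6) were at hand for 8 of the 10 genes, *Tagln* and *Myh11* being the other two. The search used the letters CCNNNNNNGG, which read the same on both strands, first with a core of 6 A or T letters and then with 1 G or C allowed in the core. The strict form was found in none of the 8 stretches and in 1.47% of 32851 promoters. The looser form was found in 8.59% of promoters at least once and in 0.67% at least 2 times. Of the 8 genes *Acta2* alone held it, 2 times, starting 84 and 34 bases before its start site. The 4 stretches below are those of *Acta2*, at chr19:34255374-34255623 on the minus strand, and of the 3 genes with a promoter sequence that passed the test in untreated cells. These are *Des* at chr1:75360042-75360291 on the plus strand, *Cnn1* at chr9:22099003-22099252 on the plus strand and *Itga8* at chr2:12301945-12302194 on the minus strand. They run 5′ to 3′ on the strand of the gene, with matches of the looser form in capitals.
Acta2: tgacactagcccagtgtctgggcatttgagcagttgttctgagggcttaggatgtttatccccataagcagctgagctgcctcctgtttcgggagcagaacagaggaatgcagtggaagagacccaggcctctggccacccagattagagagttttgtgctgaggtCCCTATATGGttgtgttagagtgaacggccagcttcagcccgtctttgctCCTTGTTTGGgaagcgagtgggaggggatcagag
Des: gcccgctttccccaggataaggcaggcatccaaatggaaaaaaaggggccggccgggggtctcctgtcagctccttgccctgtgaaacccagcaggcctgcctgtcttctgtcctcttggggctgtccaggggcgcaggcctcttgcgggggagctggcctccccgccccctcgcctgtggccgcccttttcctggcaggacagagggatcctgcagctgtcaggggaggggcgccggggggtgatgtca
Cnn1: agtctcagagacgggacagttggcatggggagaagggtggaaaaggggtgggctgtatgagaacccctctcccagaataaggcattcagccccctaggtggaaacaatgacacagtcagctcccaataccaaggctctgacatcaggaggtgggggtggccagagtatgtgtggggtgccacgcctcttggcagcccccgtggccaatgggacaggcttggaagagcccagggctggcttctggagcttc
Itga8: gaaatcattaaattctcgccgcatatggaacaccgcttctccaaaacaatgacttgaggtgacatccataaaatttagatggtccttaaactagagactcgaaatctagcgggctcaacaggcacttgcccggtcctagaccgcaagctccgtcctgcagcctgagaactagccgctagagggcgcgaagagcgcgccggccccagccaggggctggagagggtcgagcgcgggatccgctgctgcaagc
The gene with 2 matches, *Acta2*, was not among those that passed, and the 3 that passed held no match in this window. A match is a run of letters and not a measured binding site, and boxes outside this window were not searched. The search therefore draws no conclusion on which genes passed.

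Levels are given as log2 signal relative to the array's 75th percentile, which is set to 0, so a step of 1 is a doubling. They are compared between groups for 1 probe at a time and never between probes. The deleted gene itself was lower in the samples labelled Tsc2Δpodocyte, on every array and for both of its probes, by 1.43 and 1.35 on the log2 scale without treatment (adjusted p = 0.00176 and 0.00097 from limma). With rapamycin the differences were -1.27 and -0.99 (adjusted p = 0.00794 and 0.0124 from limma). It was not determined here if either probe sits in the floxed exons. Of 17 podocyte markers, 16 were well above background on all 4 untreated Tsc2Δpodocyte arrays and 17 on all 4 arrays of each other group. Among them *Nphs1* was dim, at means of -4.54 in untreated Tsc2Δpodocyte and -3.47 in untreated Tsc2flox/flox cells. The study reports that nearly all cells in its explant cultures stained for WT1, a protein of podocytes. The cultures also carried markers of other cells, so signal above background does not set podocytes apart. All 14 macrophage and leukocyte markers were above background on all arrays of 3 groups and 13 in untreated Tsc2flox/flox cells, and 9 to 11 of 12 endothelial markers were, by group. Arrays of 1 group correlated at r of 0.980 to 0.990 over all probes, and arrays of different groups at 0.970 to 0.987.

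Intermediate filaments came first among the differences. *Des* encodes desmin, the filament protein of muscle and mesangial cells. The log2 signal of *Des* was 3.67, 2.90, 2.77 and 3.54 on the untreated Tsc2Δpodocyte arrays (3.22 ± 0.45, SD, n = 4). It was 1.17, 1.57, 1.82 and 1.27 on the untreated Tsc2flox/flox arrays (1.46 ± 0.30, SD, n = 4). The lowest Tsc2Δpodocyte array lay well above the highest Tsc2flox/flox array. The difference was 1.76 on the log2 scale, or 3.39-fold (standard error 0.26, 95% confidence interval 1.21 to 2.31, adjusted p = 0.000539 from limma). With rapamycin *Des* stood at 3.95, 3.06, 3.91 and 3.76 in Tsc2Δpodocyte cells and at 2.56, 2.04, 2.15 and 2.82 in Tsc2flox/flox cells. The groups were again apart on all arrays, by 1.28 on the log2 scale or 2.42-fold (standard error 0.26, 95% confidence interval 0.73 to 1.82, adjusted p = 0.00873). The rapamycin value of *Des* lost its call only under the methods' t-test with adjustment, at an adjusted p of 0.0653.

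Each of the 4 rapamycin-treated Tsc2flox/flox arrays had more *Des* signal than each of the 4 untreated ones. That difference of 0.94 on the log2 scale (standard error 0.26) had an adjusted p of 0.118 from limma and did not pass. How many of all probes were apart in this way was not computed. In Tsc2Δpodocyte cells the corresponding difference was 0.45 (adjusted p = 0.318). The genotype difference of *Des* was smaller with rapamycin by 0.49 on the log2 scale (95% confidence interval -1.26 to 0.29, adjusted p = 0.797 for the interaction), an interval that holds no change as well as the loss of most of the difference.

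*Vim* encodes vimentin, the intermediate filament of mesenchymal cells and of podocytes. In untreated cells its log2 signal ran from 6.27 to 6.88 in Tsc2Δpodocyte samples (median 6.44) and from 6.31 to 6.54 in Tsc2flox/flox samples (median 6.39). The ranges overlapped, and the difference of 0.10 had a 95% confidence interval of -0.19 to 0.39 (adjusted p = 0.629 from limma). With rapamycin it was -0.15 (95% confidence interval -0.44 to 0.14, adjusted p = 0.520). The 2 filament genes thus gave different pictures, *Des* apart on every array and *Vim* overlapping.

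**Figure D1:**
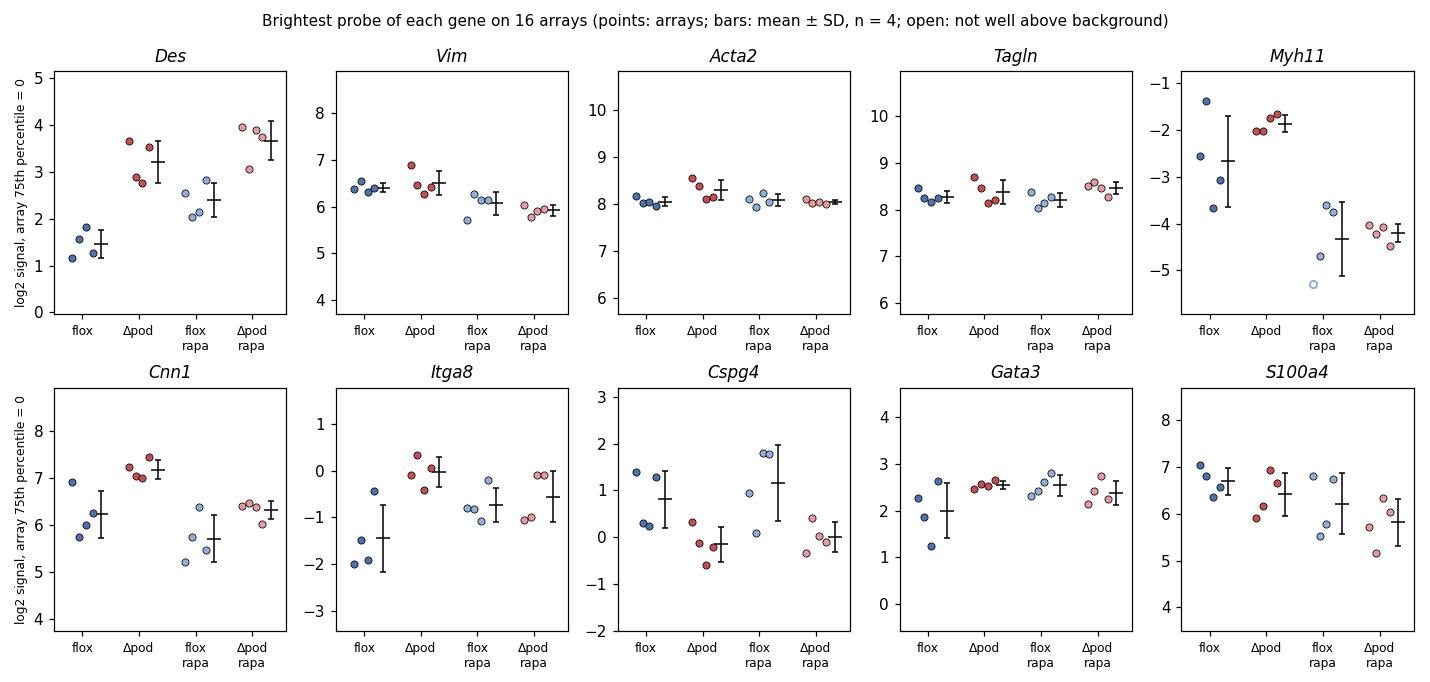
Log2 signal of the brightest probe of each of the 10 genes, relative to the array's 75th percentile, in Tsc2flox/flox (flox) and Tsc2Δpodocyte (Δpod) podocytes without and with rapamycin (rapa). Each point is an array, bars give the mean ± SD of 4 arrays, open points were not well above background, and every panel spans the same log2 range. *Des* separates the genotypes in both settings, while *Acta2*, *Tagln* and *Vim* lie close together.

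The contractile genes did not move as a block. *Cnn1*, which encodes the actin-binding protein calponin, differed most clearly. Its brighter probe gave 7.24, 7.05, 7.00 and 7.45 in untreated Tsc2Δpodocyte samples and 6.92, 5.74, 5.99 and 6.26 in untreated Tsc2flox/flox samples. All 4 Tsc2Δpodocyte arrays lay above all 4 Tsc2flox/flox arrays, though replicate 1 of the latter came within 0.1 of the lowest. The difference was 0.96 on the log2 scale, or 1.94-fold (standard error 0.25, adjusted p = 0.0194 from limma). The dimmer *Cnn1* probe gave 1.99, 1.87, 1.99 and 2.53 against 1.74, 0.45, 0.82 and 1.11, a difference of 1.07 (standard error 0.28, adjusted p = 0.0191). Both probes therefore ranked the arrays apart, with replicate 1 of Tsc2flox/flox the highest of its group each time. Without Tsc2Δpodocyte replicate 4 the adjusted p of the *Cnn1* probes became 0.0570 and 0.0599, and without Tsc2flox/flox replicate 2 it became 0.0625 and 0.0615.

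With rapamycin the brighter *Cnn1* probe stood at 6.41, 6.46, 6.39 and 6.03 in Tsc2Δpodocyte cells and at 5.22, 5.74, 6.38 and 5.48 in Tsc2flox/flox cells. Replicate 3 of the latter reached the level of the former, and the groups overlapped. The differences of 0.62 and 0.63 for the *Cnn1* probes had adjusted p-values of 0.137 and 0.178 from limma. For both, the interaction with rapamycin had adjusted p-values of 0.863 and 0.834, so a smaller genotype difference with rapamycin was not shown.

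*Myh11* encodes the smooth muscle myosin heavy chain, the most specific marker of mature smooth muscle among these genes, and its signals lay near the detection limit. The probe A_51_P362429 gave -2.02, -2.02, -1.74 and -1.67 in untreated Tsc2Δpodocyte cells and -2.56, -1.39, -3.68 and -3.07 in untreated Tsc2flox/flox cells. Replicate 2 of Tsc2flox/flox had the highest value of all 8, so the groups overlapped, and the difference of 0.81 had an adjusted p of 0.195 from limma. The probe A_55_P1988531 gave -2.85, -2.89, -2.31 and -2.35 against -3.04, -3.81, -4.35 and -3.43, with no overlap and a difference of 1.06 (standard error 0.45, adjusted p = 0.115). The probe A_55_P2734582 gave -3.99, -4.61, -4.14 and -3.74 against -4.57, -5.29, -5.83 and -5.51. Only replicate 1 of these 4 Tsc2flox/flox arrays was well above background, and it overlapped with the lowest Tsc2Δpodocyte array. This last probe alone passed, with a fitted difference of 1.18 (standard error 0.32, adjusted p = 0.0203) that takes in the 3 signals below background. Each of these was then set to the lowest signal above background on its array, or kept where its own signal was higher. The difference was then 0.72, or 1.64-fold, and under normexp background correction it was 0.29 (adjusted p = 0.0398 from limma). The probe did not pass without Tsc2Δpodocyte replicate 4 (adjusted p = 0.0604), without Tsc2flox/flox replicate 3 (0.0561) or without Tsc2flox/flox replicate 4 (0.0556). It entered the test only through the untreated Tsc2Δpodocyte group, where it is high. With no filter on dim probes its adjusted p was 0.0505 from limma. Without Tsc2flox/flox replicate 2 the probe A_51_P362429 passed (difference 1.24, adjusted p = 0.0363), and without replicate 3 its difference was 0.47 (adjusted p = 0.447).

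The 3 *Myh11* probes disagreed with rapamycin. A_51_P362429 gave -4.04, -4.21, -4.08 and -4.48 in Tsc2Δpodocyte cells and -5.28, -4.69, -3.61 and -3.76 in Tsc2flox/flox cells, a difference of 0.14 (adjusted p = 0.877 from limma). A_55_P1988531 gave -4.67, -4.68, -4.50 and -5.29 against -7.27, -6.85, -4.64 and -6.14, a difference of 1.44 with an adjusted p of 0.0550. Of the latter 4 arrays only replicate 3 was well above background. Without it the adjusted p was 0.00843, and without replicate 1 it was 0.134. With the Tsc2flox/flox arrays below background set to the lowest signal above it, the difference was 0.25, and under normexp it was 0.18 (adjusted p = 0.426). A_55_P2734582 was not well above background on any array of either rapamycin group, so it gives no comparison of the genotypes there.

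**Figure D2:**
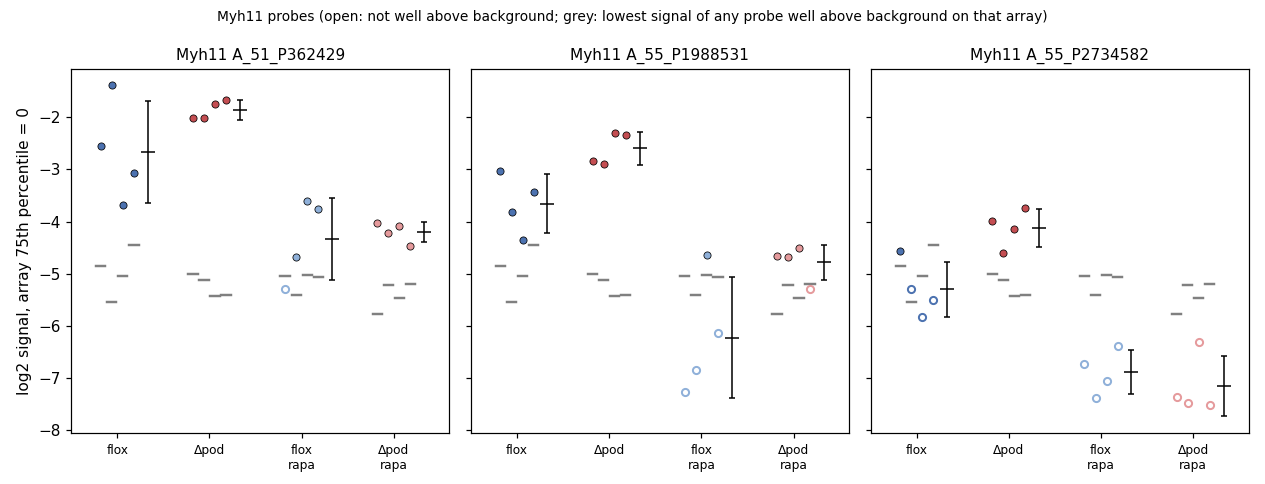
Log2 signal of the 3 *Myh11* probes relative to the array's 75th percentile, in Tsc2flox/flox (flox) and Tsc2Δpodocyte (Δpod) podocytes without and with rapamycin (rapa). Points are arrays (open where not well above background), bars are mean ± SD of 4 arrays, and grey marks show the lowest signal of any probe well above background on that array. The untreated groups lie above the rapamycin groups for A_55_P2734582, which was below the marks on all 8 rapamycin arrays.

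*Acta2*, smooth muscle α-actin, and *Tagln*, the actin-associated protein SM22α, are standard markers of smooth muscle and myofibroblasts. In untreated cells the *Acta2* probe A_52_P420504 ran from 8.11 to 8.56 in Tsc2Δpodocyte samples and from 7.97 to 8.18 in Tsc2flox/flox samples, a difference of 0.25 (standard error 0.10, 95% confidence interval 0.03 to 0.46, adjusted p = 0.108 from limma). The probes A_51_P450957 and A_52_P210078 of *Acta2* differed by 0.12 and 0.42 (adjusted p = 0.503 and 0.111). All 3 had overlapping groups, and none passed, although A_52_P210078 did so without Tsc2flox/flox replicate 1 (difference 0.56, adjusted p = 0.0409) and was at 0.32 without replicate 2 (adjusted p = 0.275). With rapamycin the 3 *Acta2* differences were -0.04, 0.03 and 0.46 (adjusted p = 0.849, 0.888 and 0.110). *Tagln* ran from 8.14 to 8.69 and from 8.16 to 8.46 in the untreated groups, with a difference of 0.10 (95% confidence interval -0.16 to 0.37, adjusted p = 0.598). With rapamycin its difference was 0.25 (95% confidence interval -0.02 to 0.52, adjusted p = 0.219). Both genes thus overlapped between the genotypes in both settings.

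Of the mesangial and pericyte members, *Itga8* encodes the integrin α8 chain, which mesangial cells use to hold on to the matrix around them. Its log2 signal was -0.09, 0.34, -0.42 and 0.07 in untreated Tsc2Δpodocyte samples. In untreated Tsc2flox/flox samples it was -1.99, -1.48, -1.90 and -0.43. Replicate 4 of Tsc2flox/flox all but reached the lowest Tsc2Δpodocyte array, and the other three were at least 1 log2 unit lower. The difference of 1.42, or 2.68-fold (standard error 0.34, 95% confidence interval 0.70 to 2.14), had an adjusted p of 0.0104 from limma, and passed with each array left out. Among all alternatives only the methods' t-test with adjustment lost it (adjusted p = 0.0709). With rapamycin *Itga8* was at -1.05, -0.99, -0.08 and -0.10 against -0.80, -0.82, -1.07 and -0.21. The rapamycin groups overlapped throughout, with a difference of 0.17 (95% confidence interval -0.55 to 0.89, adjusted p = 0.797). The genotype difference of *Itga8* was smaller with rapamycin by 1.25 on the log2 scale (unadjusted p = 0.0193), which did not pass adjustment over all probes (adjusted p = 0.642).

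*Cspg4*, the proteoglycan NG2 on the surface of pericytes, leaned the other way. Without treatment its log2 signal was 0.32, -0.11, -0.60 and -0.22 in Tsc2Δpodocyte and 1.39, 0.31, 0.25 and 1.28 in Tsc2flox/flox samples. Replicate 1 of Tsc2Δpodocyte lay just above the lower pair of Tsc2flox/flox values, so the groups overlapped, and the difference of -0.96 (standard error 0.37) had an adjusted p of 0.0869 from limma. With rapamycin the values were -0.34, 0.42, 0.02 and -0.09 against 0.94, 0.09, 1.80 and 1.78, a difference of -1.15 (standard error 0.37, adjusted p = 0.0625). Without Tsc2flox/flox replicate 2 of the rapamycin groups *Cspg4* passed, at -1.504 (adjusted p = 0.0141), and without replicate 3 it was at -0.94 (adjusted p = 0.178). Neither difference passed with all arrays, and both confidence intervals lay below 0, at -1.75 to -0.17 and -1.94 to -0.36.

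*Gata3*, a transcription factor expressed by mesangial cells in the glomerulus, ran from 2.46 to 2.65 in untreated Tsc2Δpodocyte samples and from 1.24 to 2.62 in untreated Tsc2flox/flox samples. The Tsc2flox/flox values were the more spread, and the difference of 0.55 (standard error 0.23) had an adjusted p of 0.111 from limma. Without Tsc2flox/flox replicate 4 the difference of *Gata3* was 0.76 and passed (adjusted p = 0.0311), and without replicate 3 it was 0.30 (adjusted p = 0.281). With rapamycin it was -0.15 (adjusted p = 0.729).

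*S100a4*, a calcium-binding protein also known as fibroblast-specific protein, was the fibroblast marker of the set. Its untreated values ran from 5.92 to 6.94 in Tsc2Δpodocyte and from 6.36 to 7.03 in Tsc2flox/flox cells, a difference of -0.27 (95% confidence interval -0.97 to 0.42, adjusted p = 0.591 from limma). With rapamycin it was -0.40 (95% confidence interval -1.10 to 0.30, adjusted p = 0.474). The groups overlapped in both settings, and the intervals are wide.

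**Figure D3:**
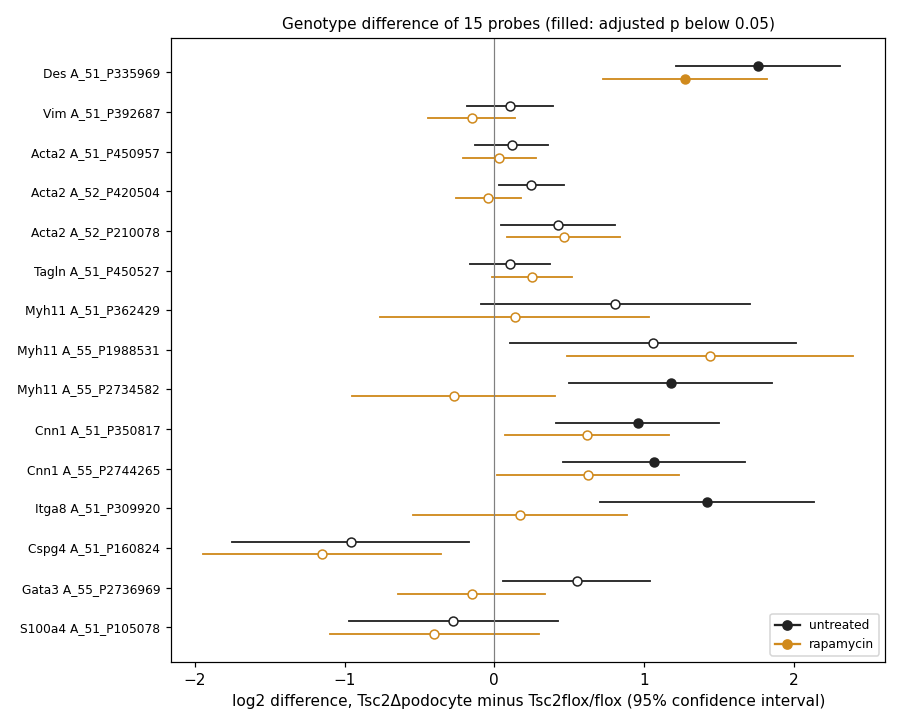
Log2 difference between Tsc2Δpodocyte and Tsc2flox/flox podocytes for the 15 probes of the 10 genes, without treatment (black) and with rapamycin (orange), with 95% confidence intervals from limma. Filled points have an adjusted p below 0.05. Of the untreated differences 5 are filled, for *Des*, *Myh11*, *Cnn1* (2 probes) and *Itga8*, and of the rapamycin differences only that of *Des* is filled.

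Counted over genes, 4 of 10 had at least 1 probe that passed and rose in untreated Tsc2Δpodocyte cells, and 0 had one that fell (limma, adjusted p below 0.05, with 7 genes at an unadjusted p below 0.05 in either direction). The call for *Myh11* rests on the probe above background on 1 of 4 Tsc2flox/flox arrays. That probe passed the filter on dim probes only through the untreated Tsc2Δpodocyte group, and without it 3 of 10 genes rose. Of all 14094 genes tested, 11.6% rose and 10.6% fell by the same rule. The median difference of the 15 probes was 0.55 on the log2 scale, and that of all probes tested was -0.02. By probe, 5 of 15 had all 4 Tsc2Δpodocyte arrays above all 4 Tsc2flox/flox arrays and 0 had all below, against 12.3% and 12.2% of all probes. With rapamycin 1 of 10 genes rose and 0 fell (5 at an unadjusted p below 0.05), against 7.53% and 5.98% of all genes. Then 1 of 15 probes had all arrays above and 0 had all below, against 9.72% and 7.43% of all probes, and the median difference was 0.14, against 0.00 for all probes. The interaction of genotype and rapamycin passed for 0 of 15 probes, as for 0% of all genes tested (limma). At an unadjusted p below 0.05 it held 3 member probes, namely A_55_P2734582 of *Myh11* (-1.45, unadjusted p = 0.00585), *Itga8* and *Gata3* (-0.70, unadjusted p = 0.0480). All 3 were negative, and the first rests on rapamycin arrays not above background. The share of all genes or probes at an unadjusted p below 0.05 was not computed, here or for the lists below. Counts at that threshold therefore have no baseline.

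Treated and untreated cells of the same genotype differed in age and slide as well as in rapamycin, and these comparisons share their arrays with the ones above. For these comparisons the share of all probes with no overlap between the groups was not computed. In Tsc2Δpodocyte cells *Myh11* was lower with rapamycin for all 3 probes. A_51_P362429 fell by 2.34 on the log2 scale (standard error 0.42, adjusted p = 0.0173 from limma), and A_55_P1988531 fell by 2.19 (standard error 0.45, adjusted p = 0.0255). Under the alternatives their smallest differences were -0.87 and -0.77, so the sizes depend on the processing. For A_55_P2734582, which no rapamycin array measured above background, the fitted difference was -3.04 (standard error 0.32, adjusted p = 0.00268 from limma). Under the alternatives it was -0.40 at its smallest, so it is not a measure of size. Each treated array was then set to its lowest signal above background, or to the probe's own signal where that was higher. Against the untreated mean the signal was then 2.45-fold lower, with no test. For A_51_P362429 and A_55_P1988531 all 4 rapamycin arrays lay below all 4 untreated ones, as the values above show, with 1 rapamycin array not above background for A_55_P1988531. Both A_55_P1988531 and A_55_P2734582 passed the filter on dim probes only through untreated groups, where they are high, so the filter favours a fall for them. The call for A_55_P1988531 was lost without untreated replicate 1 or 4 or rapamycin replicate 2 or 4, at an adjusted p of 0.0521, 0.0621, 0.0557 and 0.0539.

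*Acta2* and *Vim* passed in the same comparison. *Acta2* fell by 0.47 on the log2 scale for the probe A_51_P450957 (standard error 0.11, adjusted p = 0.0412 from limma), while A_52_P420504 and A_52_P210078 gave -0.26 and -0.44 with an adjusted p of 0.159 each. *Vim* fell by 0.59 (standard error 0.14, adjusted p = 0.0330). Both calls were lost in 7 of 8 runs that left out 1 array, with an adjusted p of up to 0.102 for *Acta2* and 0.0854 for *Vim*. The exception was rapamycin replicate 3 for *Acta2* and untreated replicate 3 for *Vim*. For *Cnn1* the differences were -0.86 and -0.89 (adjusted p = 0.0737 and 0.0898), with all 4 treated arrays below all 4 untreated ones. The share of all probes with such a separation is not known here. By gene, 3 of 10 fell and 0 rose in this comparison, against 1.99% and 2.31% of all genes.

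In Tsc2flox/flox cells 1 of 10 genes fell with rapamycin and 0 rose, against 0.071% and 0.135% of all genes. This was *Myh11*, by its probe A_55_P1988531 (fitted difference -2.57, standard error 0.45, adjusted p = 0.0468 from limma), which only 1 of 4 rapamycin arrays measured above background. The probe passed the filter on dim probes only through the untreated groups, where it is high. The filter therefore favours a fall, and the count draws no conclusion against the share of all genes. With the other three set to the lowest signal above background the signal was 2.595-fold lower, and under normexp the difference was -0.43 (adjusted p = 0.0722). Leaving out any 1 array of these groups but rapamycin replicate 3 took it past the threshold, to an adjusted p between 0.0517 and 0.123. The *Myh11* probe A_51_P362429 gave -1.66 (adjusted p = 0.103). A_55_P2734582 was above background on 1 of 4 untreated and 0 of 4 rapamycin arrays and gives no fold. *Itga8* and *Gata3* gave 0.72 and 0.54, both upward in Tsc2flox/flox cells and neither passing (adjusted p = 0.307 and 0.270).

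Other lists are set beside *Myh11* here, first the endothelial markers. None of the 12 passed in either genotype (limma, with 8 in Tsc2Δpodocyte and 9 in Tsc2flox/flox cells at an unadjusted p below 0.05), and their median difference between treated and untreated cells was -1.998 in Tsc2Δpodocyte and -1.996 in Tsc2flox/flox cells, where the medians of all genes were 0.01 and 0.00. The mean log2 level of the list ran from -1.53 to 0.55 in untreated and from -2.83 to -1.86 in treated Tsc2Δpodocyte samples. In Tsc2flox/flox samples it ran from -2.34 to 0.78 and from -2.62 to -1.53. In Tsc2Δpodocyte cells the 17 other fibroblast and myofibroblast genes tested had a median of -0.33 (limma, 1 rose and 3 fell). The 19 other mesangial and pericyte genes had -0.45 (0 rose and 1 fell). Parietal epithelial and podocyte markers had 0.78 and 0.15, and none passed. By at least 1 probe per gene, 2.31% of all genes rose and 1.99% fell. The part of these lists in the difference of *Myh11* was not tested. In a bulk sample, fewer cells of a type and less RNA per cell cannot be told apart.

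Other genes linked to mesangial cells and pericytes, ligands such as *Npnt* and *Pdgfb* among them, were read on the brightest probe of each. Of 19 tested, 5 rose and 1 fell in untreated Tsc2Δpodocyte cells, against 10.3% and 9.2% of all genes on their brightest probe, and the median of the list was 0.57 on the log2 scale, against -0.01 for all genes. The risers with the smallest p were *Mcam* (0.57, adjusted p = 0.00208 from limma), an adhesion molecule of pericytes and endothelium, *Sema3c* (1.505, adjusted p = 0.00481), a secreted semaphorin, *Agtr1a* (1.54, adjusted p = 0.0109), the angiotensin II receptor through which mesangial cells contract, and *Ptn* (1.96, adjusted p = 0.0141), the growth factor pleiotrophin. *Pdgfra*, a PDGF receptor of mesenchymal cells, was the remaining riser (0.73, adjusted p = 0.0463) and *Npnt*, the *Itga8* ligand nephronectin, the gene that fell (-0.73, adjusted p = 0.0471). *Pdgfrb*, the receptor that mesangial cells need to form, was at 0.06 (adjusted p = 0.894). The *Ptn* mean in untreated Tsc2flox/flox cells was -4.17, near the lowest signals above background on those arrays, -5.55 to -4.45. With rapamycin 1 rose and 1 fell, against 6.2% and 4.97% of all genes, and the median was -0.21, against 0.01 for all genes. *Mcam* was the riser (0.38, adjusted p = 0.0320) and *Serpine2*, a secreted protease inhibitor, fell (-1.18, adjusted p = 0.0226), while *Sema3c*, *Agtr1a* and *Ptn* gave 0.40, -0.21 and 0.24 without passing. The interaction passed for 0 of the 19 by limma, with 6 at an unadjusted p below 0.05.

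Of 18 further contractile genes tested, 2 rose and 1 fell without treatment, with a median of 0.08. These shares are near the 10.3% and 9.2% of all genes. *Tpm2*, a tropomyosin that lies along actin filaments, rose by 0.93 (adjusted p = 0.00269 from limma), and *Ppp1r14a*, the smooth muscle inhibitor of myosin phosphatase also called CPI-17, rose by 1.22 (adjusted p = 0.00574). *Smtn*, the actin-associated smoothelin, fell by 0.59 (adjusted p = 0.0107), and *Cnn2*, a calponin of non-muscle cells, was at -0.21 (adjusted p = 0.0618). With rapamycin 0 of 18 passed (limma, 1 at an unadjusted p below 0.05). Between treated and untreated Tsc2Δpodocyte cells 0 rose and 2 fell, *Tpm2* by 0.97 (adjusted p = 0.0217) and *Cald1*, the actin-binding caldesmon, by 0.41 (adjusted p = 0.0325). The median there was -0.34, with 13 of 18 at an unadjusted p below 0.05 from limma. By the rule of at least 1 probe per gene, 2.31% of all genes rose and 1.99% fell. The share on the brightest probe alone was not computed, nor was the share of all genes at an unadjusted p below 0.05.

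**Figure D4:**
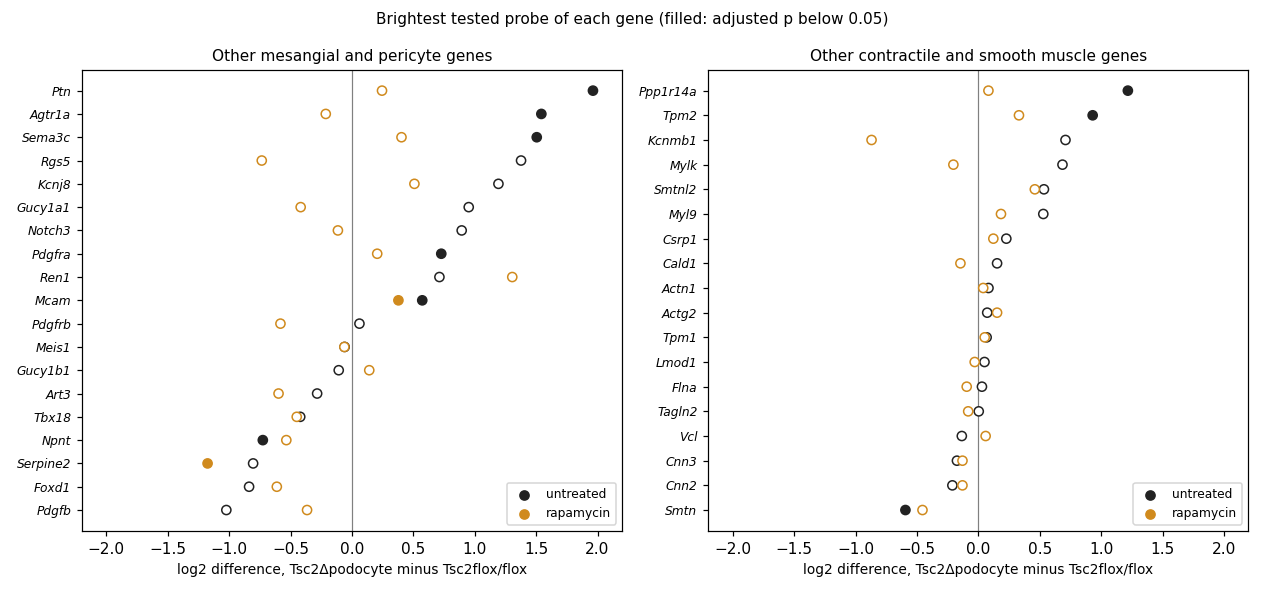
Log2 difference between Tsc2Δpodocyte and Tsc2flox/flox podocytes, without treatment (black) and with rapamycin (orange), for the brightest tested probe of 19 other mesangial and pericyte genes (left) and 18 other contractile genes (right). Filled points have an adjusted p below 0.05 in limma. On the left the black points reach from *Pdgfb* at -1.02 to *Ptn* at 1.96. Genes are ordered by the black points, and the interaction passed for 0 of the 19 on the left.

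Regulators of this gene programme were read in the same way. Of 15 genes around SRF, myocardin and TGF-β, 0 rose and 4 fell in untreated Tsc2Δpodocyte cells, against 10.3% and 9.2% of all genes, with a median of -0.08. Those that fell were *Tgfbr1*, the type I TGF-β receptor (-0.56, adjusted p = 0.0107 from limma), *Smad3*, which carries its signal (-0.56, adjusted p = 0.0356), *Mrtfa*, an SRF coactivator (-0.31, adjusted p = 0.0385), and *Ccn1*, a matricellular target of SRF and YAP (-0.40, adjusted p = 0.0436). *Srf* and *Myocd* themselves were at 0.07 and -0.28 (adjusted p = 0.613 and 0.551). With rapamycin 0 of the 15 passed (limma, 2 at an unadjusted p below 0.05).

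Among 17 further genes of fibroblasts and myofibroblasts, 1 rose and 2 fell without treatment, shares near the 10.3% and 9.2% of all genes, with a median of 0.13. *P4hb*, a subunit of the collagen prolyl hydroxylase, rose by 0.41 (adjusted p = 0.0258 from limma), *Cdh2*, N-cadherin, fell by 0.72 (adjusted p = 0.00194), and *Snai2*, a transcription factor of mesenchymal transition, fell by 0.97 (adjusted p = 0.0314). *Tnc*, the matrix protein tenascin-C, was at -0.59 (adjusted p = 0.102). With rapamycin 0 rose and only *Snai2* fell, again, by 0.98 (adjusted p = 0.0428), against 6.2% and 4.97% of all genes. Of 12 relatives of the filament and S100 members, 0 rose and 2 fell without treatment, against the same shares of all genes, with a median of -0.13. They were *S100a16* (-0.62, adjusted p = 0.00760) and *Plec*, plectin, which links intermediate filaments to other structures (-0.50, adjusted p = 0.0161). *S100a10* and *Lmna* were at -0.24 and -0.14 (adjusted p = 0.170 and 0.348). With rapamycin 0 of the 12 passed (limma, 2 at an unadjusted p below 0.05).

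The culture could hold other cells, and their markers were read against the same 10.3% and 9.2% of all genes that rose and fell on their brightest probe. Of 14 macrophage and leukocyte markers 2 rose in untreated Tsc2Δpodocyte cells, *Cd14* (0.60, adjusted p = 0.0160 from limma) and *Cd68* (1.03, adjusted p = 0.0190), 0 fell, which is near those shares, and the median was 0.91. *Itgam* and *Ptprc* were at -0.52 and 0.94 (adjusted p = 0.0503 and 0.114). The mean level of this list ran from -0.59 to 0.44 in Tsc2Δpodocyte and from -1.54 to -0.17 in Tsc2flox/flox samples. With rapamycin 0 passed (limma, 1 at an unadjusted p below 0.05), and the median was -0.06. Of 9 parietal epithelial markers 0 rose and 3 fell without treatment, *Pax8* (-1.47, adjusted p = 0.000523), *Cdh6* (-1.64, adjusted p = 0.00146) and *Cd24a* (-1.36, adjusted p = 0.00465), with *Pax2* at -0.85 (adjusted p = 0.0854). Their mean level ran from -0.29 to 0.51 and from 0.76 to 1.23, with no overlap. With rapamycin 0 rose and 2 fell, *Pax8* (-1.14, adjusted p = 0.00668) and *Cdh6* (-1.90, adjusted p = 0.00200), against 6.2% and 4.97% of all genes.

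Of 17 podocyte markers 2 rose and 1 fell without treatment, near the 10.3% and 9.2% of all genes. The risers were *Plce1* (1.80, adjusted p = 0.00356 from limma) and *Clic5* (1.04, adjusted p = 0.0319). *Foxc2* fell (-0.77, adjusted p = 0.0400), with *Wt1* at 0.49 (adjusted p = 0.0962) and a median of 0.08. With rapamycin 2 rose and 1 fell, against 6.2% and 4.97% of all genes. *Plce1* (1.65, adjusted p = 0.0113) and *Podxl* (1.18, adjusted p = 0.0372) rose and *Myh9* fell (-0.34, adjusted p = 0.0171). Of the 12 endothelial markers 0 passed in either genotype comparison by limma (1 in each at an unadjusted p below 0.05), with medians of -0.27 and -0.27, and those with the smallest p without treatment were *Flt1* (-1.02, adjusted p = 0.0753), *Vwf* (0.92, 0.170), *Ehd3* (-0.28, 0.214) and *Plvap* (-0.90, 0.451). *Vwf* was above background on no untreated Tsc2flox/flox array, so its difference is not a measure of size. Whether these lists have a part in the differences of *Des*, *Itga8*, *Cnn1* and *Myh11* was not tested.

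Each gene's brightest probe was also set against that of 14080 other genes over the 16 arrays, as a description of likeness. The arrays share 2 slides and 4 groups, so any genes that differ between the same groups correlate. Closest to *Des* were *Mcoln2* (Pearson's r = 0.941), *Ttc7* (0.937) and *Tmem71* (0.925). *Cspg4* went with *Csrp2* (0.933), a LIM protein of smooth muscle, *Ski* (0.927) and *Vxn* (0.919), and *Cnn1* with *Sh3bgr* (0.921), *Marchf2* (0.906) and *Pilra* (0.888). For *Acta2* the nearest were *Ftl1* (0.891), *Igfbp7* (0.884) and *Ppia* (0.880), and for *Tagln* they were *S100a6* (0.882), *Cox6a1* (0.867) and *Myl6* (0.858). *Myh11* was nearest to *Igfbp3* (0.890), *Kif5b* (0.843) and *Ptprcap* (0.838). *Itga8* was nearest to *Avpr1a* (0.879), a vasopressin receptor, *Rgl1* (0.863) and *Nmrk1* (0.856). For *Gata3* they were *Gja5* (0.869), *Pde8b* (0.857) and *Itga9* (0.857), for *S100a4* *Hbs1l* (0.872), *Kcnd3* (0.865) and *Hspa12b* (0.844), and for *Vim* *Rtn4* (0.878), *1810030O07Rik* (0.874) and *Cald1* (0.865). No member was among the 3 nearest genes of another.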

How the data were processed

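Total RNA of primary podocytes, labelled with Cy3, was hybridised to 16 Agilent SurePrint G3 mouse arrays, 4 per group. The authors extracted signals with Agilent Feature Extraction 10.7.3.1 (per the submitters' processing notes), and each deposited scanner file holds a background-subtracted intensity per spot on a linear scale. The authors also deposited a table of log2 values, which by its values was shifted to each array's 75th percentile and centred on each probe's median (lowest r per array with the values made here, rounded, 0.9998). It served as an alternative. The submitted labels gave the groups.

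The log2 intensity minus that of the array's 75th percentile over 59305 non-control spots was used. Repeat spots were averaged without outlier flags. A probe was tested where some group had it well above background on each of its 4 arrays (27579 probes, 14094 genes), so it may be dim elsewhere. Probes were named through their RefSeq accessions and the GRCm38.p6 gene table. limma 3.58.1 (R 4.3.3) fitted 4 group means over all arrays, with Benjamini-Hochberg adjustment over all probes tested. A probe passed at an adjusted p below 0.05. The methods' t-test is taken from the study's statistics section, since its array methods name thresholds and Benjamini-Hochberg adjustment but no test. The number of arrays, 4 per group, limits the precision. The scripts were tested on simulated data.

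The members, the lists and the rule for named genes (each member on every probe, *Tsc2*, up to 4 genes of each list with the smallest p in the untreated comparison, and the 3 most alike genes of each member) were chosen with earlier results of these data known. *Pdgfra*, *Pdgfrb*, *Pdgfb*, *Npnt*, *Serpine2*, *Srf*, *Myocd*, *Cald1*, *Podxl*, *Nphs1* and *Myh9* lie outside this rule and were chosen after their values were seen. Alternatives were each array left out, quantile normalization, normexp (offset 50, on median signals), the deposited values, dim probes unfiltered or filtered over all 16 arrays, the replicate block, the methods' t-test with adjustment, a robust and trended prior, a 1.5-fold threshold and a fit of only those arrays that a comparison uses. For *Myh11*, differences with each array of the dimmer group below background set to its lowest signal above background were added after the data were seen, with no test. A signal already higher than that was kept.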

Additional observations from a re-analysis of the deposited data

Results flagged for a closer look

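Of 60 groups of 4 arrays, for the 15 probes in 4 groups each, 2 held an array that stood apart from the others by Dixon's test at the 95% level. Chance gives about 1 such group in 20. For the *Myh11* probe A_55_P2734582 in rapamycin-treated Tsc2Δpodocyte cells, replicate 3 was at -6.30 and its nearest neighbour at -7.35, a gap of 0.868 of the group's range. No array of that group was well above background for this probe. For the *Cnn1* probe A_51_P350817 in the same group, replicate 4 was at 6.03 and its nearest neighbour at 6.39, a gap of 0.839 of the range. Both are within 1 group, and neither array was left out of the values reported.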

How the results depend on the processing

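Over the 36 results for single probes, 602 alternatives were run: 536 kept the direction and the side of the threshold, 56 lost a call, 10 gained one and 0 reversed a call. In 12 an uncalled difference changed sign. Without treatment 4 genes passed. The count was 1 (*Des*) by the methods' t-test with adjustment, 3 to 4 under every other alternative that kept all arrays, and from 2 to 5 with 1 array left out. With rapamycin 1 gene passed. The count was 2 under quantile normalization and with the deposited values (*Des* and *Myh11*), 2 under normexp (*Des* and *Cspg4*), 0 by the t-test, and from 1 to 2 with 1 array left out. The interaction stayed at 0 in each fit, including those with 1 array left out (0 to 0). For rapamycin in Tsc2flox/flox cells 1 gene passed. The count was 0 under normexp, without a filter, under the stricter filter (which leaves out the *Myh11* probes), with the replicate block, by the t-test and with only the arrays compared, and from 0 to 1 with 1 array left out. For rapamycin in Tsc2Δpodocyte cells 3 genes passed. The count was 1 (*Myh11*) under quantile normalization, without a filter, by the t-test and with only the arrays compared, 2 under the stricter filter (*Acta2* and *Vim*), 2 with a 1.5-fold threshold as well (*Myh11* and *Vim*), 4 under normexp (*Cnn1* gained), and from 1 to 2 with 1 array left out.

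Over 16 pairs of samples that share a replicate number the correlation of residuals ran from -0.304 to 0.464. It was above 0.1 in 5 pairs, 3 of them among the 4 pairs of the rapamycin genotype comparison (0.464, 0.174 and 0.289, with -0.023 for the fourth). In no comparison were all pairs above 0.1. The numbers give the array's position in its slide row and were not taken to pair samples. With the replicate block the counts were 4, 1, 0, 0 and 2 in the order above, and *Vim* in Tsc2Δpodocyte cells (adjusted p = 0.0567) and the *Myh11* probe A_55_P1988531 in Tsc2flox/flox cells (adjusted p = 0.0796) did not pass. The causes of these changes were not tested. Signal over background limits *Myh11* alone among the 10 genes: 2 of its 3 probes were below it on most arrays of at least 1 group, so fitted differences there rest on signals below background and are not measures of size.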
